A study of Phoxinus septimaniae with 18 samples.

Results

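The brain transcriptome of an invasive minnow, given by the submitters as Phoxinus septimaniae x P. dragarum, was compared between a saline and an upstream station of the Llobregat River near Barcelona. The comparison uses the 6 brain libraries of the 18 libraries in the series, chosen by the tissue and station in their titles, and the other libraries come from gills and liver. The 3 salt libraries came from fish taken beside a potash mine where salinity reached 18.1 ppt. The 3 reference libraries came from fish taken upstream at a lower salinity, whose value is not given in the sources used here. The fish were sampled in the river with no experimental treatment, and the titles call the libraries of a group biological replicates. Age and sex were not given in the sources used here. Each group stands for 1 station, so salinity cannot be told apart from any other difference between the stations or between their fish. In whole brain tissue, fewer cells of a type and less RNA per cell cannot be told apart either.

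Freshwater fish live in water more dilute than their body fluids, and they take up salts and excrete water to keep those fluids stable. The brain reads the salt and water balance of the body, and hormones of the hypothalamus and pituitary act on the gills, kidney and gut. Neurons and glia also adjust their own ion and water content through pumps, channels, cotransporters and small organic solutes. The question of the comparison is which genes differ in level in the brains of fish living at the saline station.

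Reads had been counted on a de novo assembly of 62498 transcripts, which the assembler Trinity grouped into 27606 genes. Of these genes, 14526 had 1 transcript and 13080 had more, up to 18. A transcript identifier can carry protein hits, and 48.97% of the genes had one. Summed by the first hit that each transcript lists, the counts fell on 14386 hits, of which 12319 are zebrafish protein identifiers of the form ENSDARP. The identifiers pair these proteins with no gene symbol, apart from a mitochondrial COX1 entry, so genes are named here by their assembly number and hits by their accession, and no role is given to them. For the same reason the tissue label could not be checked against brain marker genes. Across the 12419 genes shared with the liver table, the brain libraries correlated with each other at r from 0.927 to 0.953 and with liver libraries at r from 0.450 to 0.544 on log2 CPM, a description across genes that are not independent replicates. The total count per brain library ran from 23678725 to 28731252.

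The brain libraries did not separate by station in their overall profile. On the first principal component of log2 CPM per gene, which held 25.1% of the variance, salt 1 scored -114 and reference 2 scored -78.4, while reference 1 and reference 3 scored 88.0 and 86.4. Salt 2 and salt 3 lay between them at 24.1 and -6.31. None of the 5 components placed all 3 salt libraries on one side of all 3 reference libraries. The genes with the largest weights on the first component ranged from 0 or near 0 to clear expression among fish of the same station. DN1302_c0_g1, with a hit to ENSDARP00000126823, had 0, 46.3 and 0 CPM (counts scaled to library size) in salt 1 to 3 and 82.7, 0 and 48.3 CPM in reference 1 to 3. DN61628_c0_g1, with a hit to ENSDARP00000062884, showed the opposite pattern at 176, 0.0432 and 66.8 CPM in the salt libraries and 0.0361, 131 and 0 CPM in the reference libraries. Salt 1, salt 3 and reference 2 shared the low level of the former gene and the high level of the latter. The spread between fish was large across genes, with an edgeR biological coefficient of variation of 0.525.

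**Figure D1:**
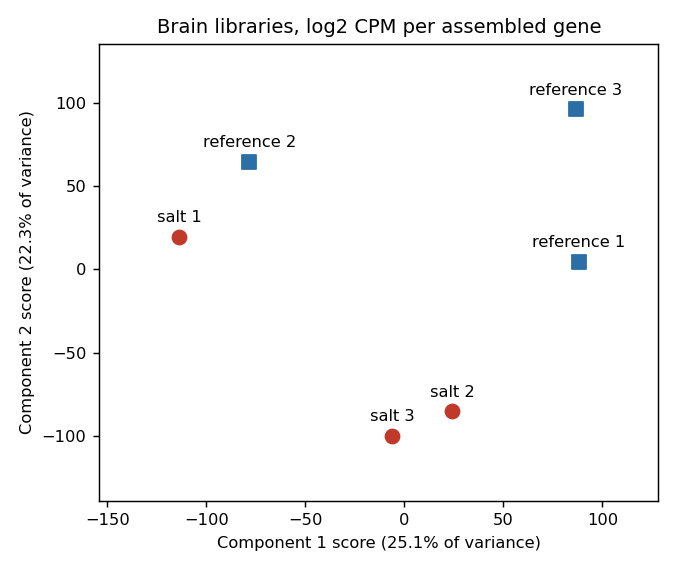
Scores of the 6 brain libraries on the first and second principal components of log2 CPM per assembled gene, with the share of variance on each axis; circles are salt and squares are reference libraries. Salt 1 (-114) and reference 2 (-78.4) lie at the left, and reference 1 (88.0) and reference 3 (86.4) at the right.

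No gene passed the test between the stations. edgeR's quasi-likelihood test called 0 of 26930 genes (0%) at an adjusted p of 0.05, and 1726 genes (6.41%) had an unadjusted p under 0.05, 810 (3.01%) higher and 916 (3.4%) lower at the salt station. The larger of these directions turned with the settings: 887 were higher and 798 lower with total counts as library sizes, and 1565 higher and 1136 lower without reference 2. limma-voom called 0 genes, and DESeq2 called 352 genes (1.31%), 169 higher and 183 lower. Of all genes tested, 3637 (13.5%) had CPM values that did not overlap between the stations, 1549 (5.75%) higher and 2088 (7.75%) lower at the salt station. Differences are given below on the log2 scale as salt minus reference. They were small for most genes: the median absolute log2 fold change was 0.27, with a middle range from 0.12 to 0.57, and the median standard error was 0.36. Among the 19158 genes tested with a mean of at least 50 counts, 6.99% differed by more than 1 on the log2 scale, 725 of them higher and 614 lower at the salt station. Summed by protein hit, edgeR called 0 of 14202 hits (0%), with 901 (6.34%) at an unadjusted p under 0.05, 443 (3.12%) higher and 458 (3.22%) lower. That split moved to 512 higher and 343 lower when libraries were scaled by total counts. limma-voom called 0 hits and DESeq2 213 (1.5%), 101 higher and 112 lower. The stations did not overlap in 1965 hits (13.8%), 872 (6.14%) higher and 1093 (7.7%) lower at the salt station. The genes and hits described below were ranked by their p, so their values are descriptions of the libraries and passed no edgeR test.

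**Figure D2:**
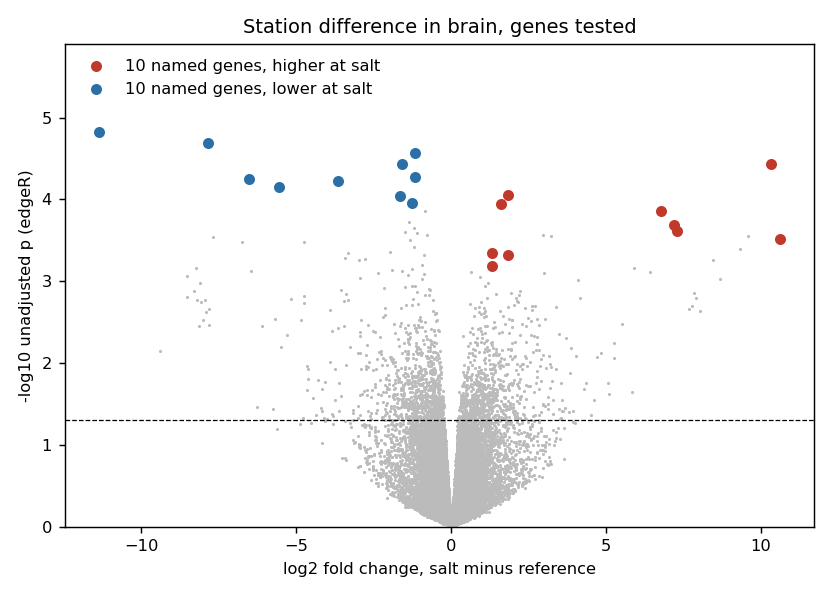
Log2 fold change of salt minus reference (x) against -log10 of the unadjusted edgeR p-value (y) for the 26930 brain genes tested, with the 10 named genes of each direction coloured and a dashed line at 0.05. The named genes lie at the edge of the cloud on both sides, and 1726 genes lie above the line.

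The genes lower at the salt station with the smallest p included 4 with zebrafish protein hits, all expressed in every library. DN327_c0_g2, with a hit to ENSDARP00000050378, had 435, 385 and 372 CPM in the salt libraries and 957, 835 and 917 CPM in the reference libraries. Every salt library was below every reference library, or -1.18 on the log2 scale (SE 0.11, edgeR adjusted p = 0.200). DN585_c0_g1 had 801, 876 and 832 CPM at the salt and 1987, 1666 and 2367 CPM at the reference station, or -1.26 on the log2 scale (SE 0.15, edgeR adjusted p = 0.235). DN11342_c2_g1 had 532, 538 and 485 CPM against 1189, 1026 and 1308 CPM, or -1.18 on the log2 scale (SE 0.12, edgeR adjusted p = 0.202). The last 2 genes carry the same hit, ENSDARP00000080768, and are the only genes that list it first. Their counts kept a nearly fixed ratio, from 1.5 to 1.81 across all 6 libraries, and whether reads were divided between near-identical copies was not tested. DN7685_c0_g1, with a hit to ENSDARP00000079823 and 1 transmembrane segment in its identifier, had 16.2, 16.1 and 16.3 CPM in the salt libraries and 54.0, 39.5 and 60.8 CPM in the reference libraries. The salt libraries were almost equal, and the log2 fold change was -1.67 (SE 0.19, edgeR adjusted p = 0.221).

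Of the other 6 genes lower at the salt station, all but DN1381_c3_g2 were counted rarely or not at all there. DN6174_c1_g1, which has no protein hit, had 0 counts in all 3 salt libraries and 14.7, 10.4 and 14.3 CPM in the reference libraries, at least 111-fold lower against a bound of 3 counts per library. DN11470_c1_g1, also without a hit, had 0.102, 0.0432 and 0 CPM at the salt and 14.7, 11.1 and 12.5 CPM at the reference station. DN1381_c3_g2, without a hit, was present in every library, at 20.8, 19.98 and 20.8 CPM in the salt and 61.7, 52.3 and 72.9 CPM in the reference libraries, or -1.60 on the log2 scale (SE 0.15, edgeR adjusted p = 0.200). The remaining 3 genes (DN9871_c0_g1, DN4902_c2_g1 and DN6401_c9_g1) had at most 0.694 CPM in any salt library and at least 4.49 CPM in every reference library. In each of the 3, reference 2 was the lowest of the reference libraries. All 10 genes were called by DESeq2, which used the same libraries and is no separate support.

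The genes higher at the salt station with the smallest p likewise included 4 with zebrafish protein hits, again expressed in every library. DN151_c0_g1, with a hit to ENSDARP00000109033, had 70.5, 42.8 and 59.5 CPM in the salt libraries and 15.4, 16.7 and 16.1 CPM in the reference libraries. The lowest salt library was above every reference library, or 1.84 on the log2 scale (SE 0.21, edgeR adjusted p = 0.221). The same hit is listed first by 46 genes, and 41 of the genes that list it at any place were tested. Of these, 18 were higher and 23 lower at the salt station, from -2.76 to 2.55 on the log2 scale, with a median of -0.34 against 0.00 over all genes tested. Summed over every transcript that lists it first, the hit had a log2 fold change of -0.12 (SE 0.28) and did not follow DN151_c0_g1. An unadjusted p under 0.05 was found for 5 of the 41 genes, beside 6.41% of all genes tested. None of the 5 passed the edgeR threshold, and they are described only by their values. Besides DN151_c0_g1, DN18201_c1_g1 was also higher in every salt library, at 1.77, 3.76 and 3.75 CPM against 1.05, 1.69 and 1.14 CPM. The others, DN1447_c1_g1, DN3341_c0_g1 and DN7874_c0_g1, were lower in every salt library, by -0.39, -1.61 and -2.76 on the log2 scale.

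DN1899_c0_g1, whose transcripts list ENSDARP00000091977 and ENSDARP00000091979 first, had 28.3, 27.9 and 37.1 CPM in the salt and 11.3, 8.97 and 10.4 CPM in the reference libraries. The stations were well apart, with salt 3 the highest. Both hits were higher by themselves, with log2 fold changes of 2.10 (SE 0.36) and 1.40 (SE 0.26), beside 1.61 (SE 0.19, edgeR adjusted p = 0.235) for the gene. DN1647_c4_g1, with a hit to ENSDARP00000079296, had 12.2, 10.7 and 9.30 CPM at the salt and 4.19, 4.09 and 4.54 CPM at the reference station, or 1.33 on the log2 scale (SE 0.20, edgeR adjusted p = 0.345). DN97_c1_g1, with hits to ENSDARP00000113705 and ENSDARP00000117863, had 8.94, 12.2 and 12.5 CPM against 4.51, 4.53 and 4.42 CPM, or 1.32 on the log2 scale (SE 0.21, edgeR adjusted p = 0.401). DN9146_c1_g1, without a hit, had 5.2, 4.36 and 3.88 CPM against 1.23, 1.15 and 1.39 CPM. In these 4 genes the reference libraries lay close together and no salt library overlapped them.

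The other 5 of the 10 genes were near or at 0 in the reference brains. DN22877_c0_g1, without a hit, had 5.88, 7.51 and 5.47 CPM in the salt libraries and 0 counts in every reference library, at least 51.8-fold higher against 3 counts per library. DN7671_c0_g1, with a hit to AMPQU_Aqu1.206613, had 11.4, 3.63 and 8.37 CPM and also 0 counts in every reference library, at least 64.1-fold higher. A second gene lists that hit, and over both genes the log2 fold change was 2.45 (SE 1.63), so the hit itself was present in the reference brains. DN7671_c0_g1 was also counted in every liver, so its absence at the reference station holds for brain only. On total counts it had 19.5 CPM in reference liver 2, and 1.16 and 0.0645 CPM in reference livers 1 and 3. The salt livers lay between 0.361 and 8.3 CPM and overlapped them. DN144811_c0_g2, DN1547_c1_g1 and DN27564_c0_g1 had 3.47 CPM or more in every salt library and at most 0.133 CPM in any reference library. In all, 26 of the 26930 genes tested were at 0 in every library of a station. The low-count filter required 3 libraries above its cutoff, so such genes were tested only if every library of the other station expressed them. DESeq2 called each of the 26, which is no support after that filter, and 1.31% of all genes tested.

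**Figure D3:**
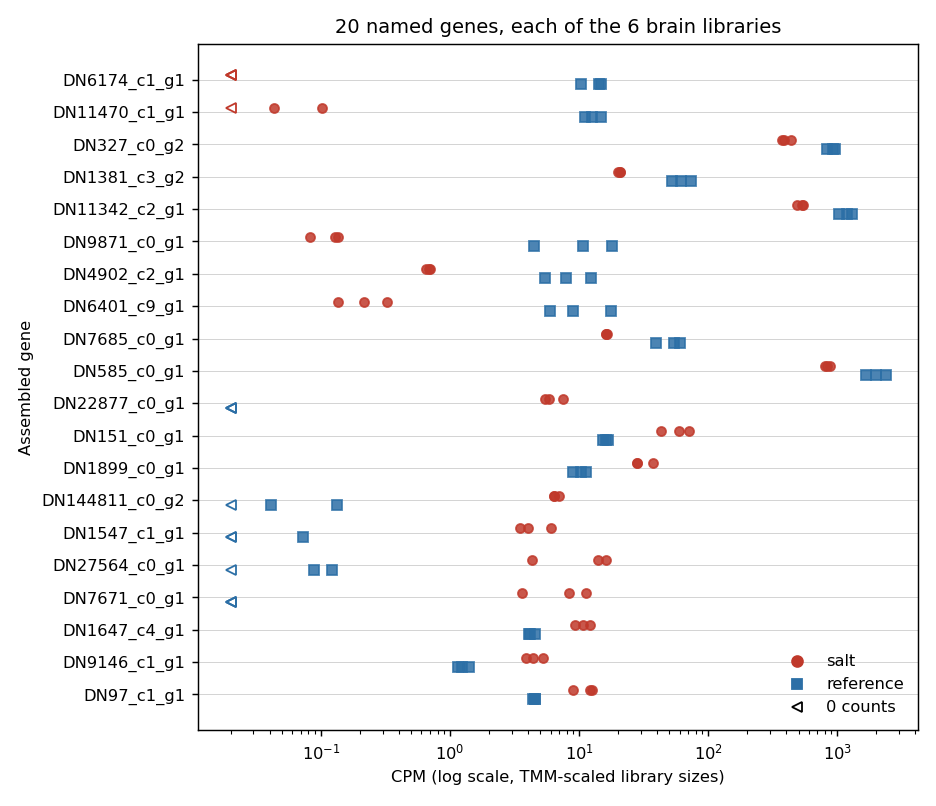
CPM on TMM-scaled library sizes (log axis) of the 20 named genes in each of the 6 brain libraries, with circles for salt, squares for reference and open triangles at the left edge for 0 counts. The stations do not overlap in any of the 20 genes, which was a condition of naming them; DN585_c0_g1 spans 801 to 876 CPM at the salt and 1666 to 2367 CPM at the reference station.

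Several other protein hits with small p came from genes outside this list that every library expressed. ENSDARP00000077180, whose identifier gives 1 transmembrane segment, had 27.8, 34.2 and 27.8 CPM at the salt and 70.7, 62.4 and 67.4 CPM at the reference station, or -1.16 on the log2 scale (SE 0.13, edgeR adjusted p = 0.366). ENSDARP00000062701 had 77.7, 122 and 93.8 CPM against 25.1, 41.8 and 35.7 CPM, or 1.52 on the log2 scale (SE 0.25, edgeR adjusted p = 0.519). ENSDARP00000057376 had 175, 242 and 270 CPM against 117, 83.8 and 103 CPM, or 1.18 on the log2 scale (SE 0.21, edgeR adjusted p = 0.519). In each of the 3 hits the stations did not overlap. ENSDARP00000110768 had the smallest difference among the named hits, with 176, 203 and 193 CPM at the salt and 130, 113 and 124 CPM at the reference station, or 0.64 on the log2 scale (SE 0.10, edgeR adjusted p = 0.519).

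Of the hits named for the smallest p in each direction and expressed in every library, ENSDARP00000033498 had the largest difference. It had 8.72, 3.73 and 10.1 CPM in the salt and 101, 43.1 and 81.5 CPM in the reference libraries, or -3.32 on the log2 scale (SE 0.49, edgeR adjusted p = 0.491). ENSDARP00000108089 had at most 0.158 CPM in any salt library and 24.0, 5.17 and 13.8 CPM in the reference libraries. Reference 2 was the lowest reference library for both hits. ENSDARP00000068241 had 216, 225 and 191 CPM at the salt and 358, 390 and 397 CPM at the reference station, and ENSDARP00000051817 had 198, 225 and 239 CPM against 360, 376 and 401 CPM. The stations did not overlap in either. The former is listed first by DN4672_c1_g1, and the latter by DN808_c0_g2, whose transcripts list the former second. Another gene, DN808_c0_g3, also lists ENSDARP00000068241 second and did not separate the stations, at 136, 113 and 138 CPM against 112, 148 and 116 CPM.

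Some differences in a hit or a transcript were not seen in the gene they belong to. The hit with the smallest p of all, ENSDARP00000116571, is listed first by 2 of the 8 transcripts of DN6998_c0_g1. The transcript i5 had 26.1, 22.1 and 22.2 CPM in the salt libraries and 0, 4.53 and 0 CPM in the reference libraries. The transcript i16 of the same gene went the other way, at 14.6, 11.4 and 27.3 CPM against 64.5, 50.01 and 67.7 CPM. The whole gene had 174, 172 and 169 CPM at the salt and 161, 166 and 160 CPM at the reference station, or 0.08 on the log2 scale (SE 0.08, edgeR adjusted p = 0.895). The gene sums lay close together while these transcripts differed in opposite directions.

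**Figure D4:**
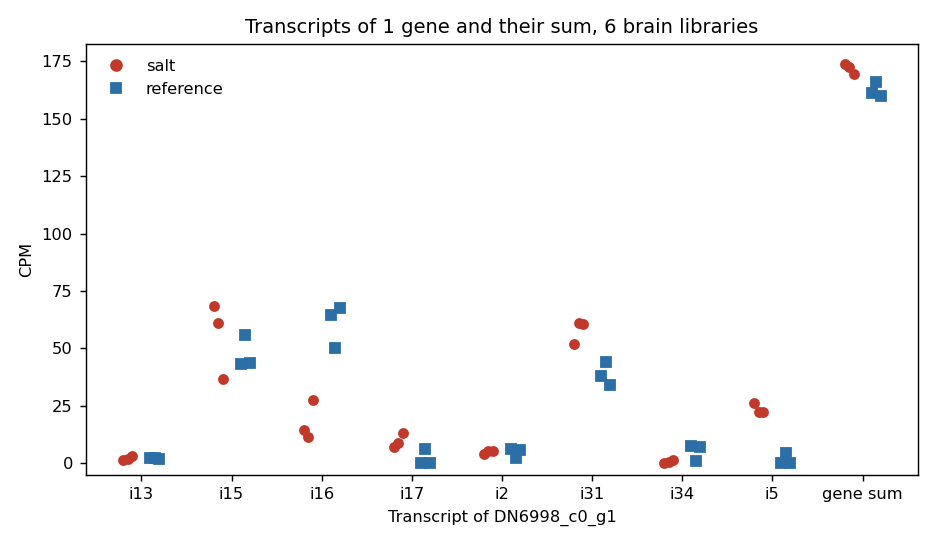
CPM of each of the 8 transcripts of DN6998_c0_g1 and of their sum in the 6 brain libraries, with circles for salt and squares for reference. Transcripts i5 and i16 differ in opposite directions, while the sum spans 169 to 174 CPM at the salt and 160 to 166 CPM at the reference station.

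Transcripts found at 1 station only mostly belonged to genes found at both. The deposited table held transcripts by their level in any libraries, so a transcript at 0 throughout 1 station had entered through the other. In brain, 984 transcripts (1.57% of all) had 0 counts in every salt library, and only 271 of these were above 0 in all 3 reference libraries. For 930 of the 984 (94.5%) the gene had counts at the salt station through other transcripts. Another 890 transcripts (1.42%) had 0 counts in every reference library, and only 226 of these were above 0 in all 3 salt libraries. For 841 of the 890 (94.5%) the gene had counts at the reference station. Among those that could be fitted, 207 and 170, the gene sums had a median absolute log2 fold change of 0.25 in both sets, and 87.0% and 90% of them differed by less than 1. Of all 57387 transcripts fitted, 43511 belonged to genes assembled as more than 1 transcript. In these genes a transcript differed by a median of 0.52 on the log2 scale in either direction, and the gene sum by 0.22. The share that differed by more than 1 was 26.9% of transcripts and 6.27% of gene sums. The edgeR coefficient of variation was 1.13 for transcripts and 0.525 for genes.

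Grouped by the transmembrane segments in the identifiers, the class medians ran from -0.06 to 0.10 on the log2 scale. Over all genes tested the median log2 fold change was 0.00 and 6.41% had an unadjusted p under 0.05, 3.01% higher and 3.4% lower. Classes of genes with 1, 2 to 3, 4, and 5 to 6 segments held 1471, 562, 216 and 228 genes. Their medians were 0.04, -0.02, 0.09 and 0.05. At that p they had 58, 11, 11 and 10 genes higher and 41, 22, 4 and 6 lower. These were 6.73%, 5.87%, 6.94% and 7.02% of each class. Among 237 genes with 7 segments, the number typical of G protein-coupled receptors, the median was 0.10, with 14 higher and 5 lower at that p, 8.02% in all. The 7-segment gene with the smallest p, DN10130_c2_g1 with a hit to ENSDARP00000061498, had 16.3, 30.2 and 24.2 CPM at the salt and 9.38, 9.15 and 7.32 CPM at the reference station, higher by 1.45 on the log2 scale. Among 220 genes with 8 to 11 segments the median was 0.01, with 10 higher and 3 lower at that p, 5.91% in all. Many transporters have such a number of segments, and DN364_c1_g1, with a hit to ENSDARP00000078672, had 79.9, 53.7 and 65.5 CPM against 36.1, 24.2 and 33.9 CPM. Among 113 genes with 12 or more segments the median was -0.06, with 4 higher and 4 lower, 7.08% in all. DN11947_c1_g1, with the smallest p of this class, had 5.85, 5.09 and 5.51 CPM at the salt and 8.51, 14.3 and 18.4 CPM at the reference station, lower by 1.32 on the log2 scale. The next, DN2475_c0_g3, with a hit to ENSDARP00000082351, had 68.8, 75.2 and 90.03 CPM in the salt libraries and 18.7, 48.7 and 21.5 CPM in the reference libraries.

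Genes with a hit and no segment numbered 10247, with a median of -0.01 and 7.02% at an unadjusted p under 0.05. Genes without a protein hit numbered 13636, with a median of 0.01 and 5.9% at that p. They made up 50.6% of the genes tested and 44.6% of those called by DESeq2. Genes whose first hit carried the source code HYDMA were few, 107, and spread more widely, with a middle range from -0.63 to 0.79 against -0.27 to 0.28 over all genes and 15.9% at an unadjusted p under 0.05. A wider spread was also seen for the codes AMPQU (93 genes, -0.83 to 0.33) and NEMVE (39 genes, -0.69 to 0.15). Of these, 8.6% and 7.69% had such a p.

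Of the 10 most abundant brain genes, 4 had an unadjusted p under 0.05 and 3 did not overlap between the stations. The shares over all genes tested were 6.41% and 13.5%, and none of the 10 passed the edgeR threshold. DN28674_c1_g1 and DN167722_c2_g1, which had such a p, were high in reference 2 alone. They had 24513 and 22157 CPM there, and at most 199 and 135 CPM in any other library. DN6508_c0_g1, which took more counts than any other gene, had 34152, 46257 and 38958 CPM at the salt and 40128, 48196 and 30297 CPM at the reference station, 0.01 apart on the log2 scale (SE 0.20). DN838_c0_g1, whose first hit carries the source code FUGRU, was the steadiest of the 10, ranging 1.15-fold across the 6 libraries. Every salt library was below every reference library, or -0.12 on the log2 scale (SE 0.09). DN2042_c8_g2, with a hit to ENSDARP00000107557, had 4062, 5662 and 4333 CPM in the salt and 3562, 3940 and 3030 CPM in the reference libraries, also with no overlap. DN2563_c0_g2, with a hit to ENSDARP00000120451, had 4138, 2525 and 3113 CPM in the salt and 7063, 6337 and 5358 CPM in the reference libraries, with no overlap. Its log2 fold change was -0.94 (SE 0.21, edgeR adjusted p = 0.550). DN5426_c0_g1, with a hit to ENSDARP00000072616, had 5312, 9654 and 10939 CPM in the salt libraries and 35.6, 8313 and 627 CPM in the reference libraries. It ranged 307-fold across the 6 fish, reference 2 lay among the salt libraries, and the log2 fold change of 1.53 had an SE of 1.55. The 10 most abundant genes held 7.15%, 8.11% and 7.69% of the counts in the salt libraries and 7.18%, 13.1% and 5.86% in the reference libraries. The groups overlapped, with a difference of -1.06 percentage points (exact two-sided permutation p = 0.9, where 0.1 is the smallest that 3 against 3 can give). Without reference 2 the difference was 1.13 points, in the other direction.

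Mitochondrial transcripts set reference 2 apart from the other 5 brains. The transcript whose hit is named COX1, a subunit of cytochrome c oxidase in the respiratory chain, had 129, 199 and 133 CPM in the salt libraries, 169 and 138 CPM in reference 1 and 3, and 24513 CPM in reference 2. In the liver library with the same fish code, this transcript had 7452 CPM on total counts, and at most 56.5 CPM in the other livers. In DN112276_c2_g1, on total counts, the transcript i3 had 6207, 4999 and 4859 CPM in the salt libraries and 5508 and 4610 CPM in reference 1 and 3, but 0.453 CPM in reference 2. There the transcript i2 of that gene had 11058 CPM, and at most 1.14 CPM elsewhere. DN80_c2_g1, with a mitochondrial hit, had 0 counts in reference 2 and between 319 and 495 CPM in the other 5 libraries. Identifiers marked mitochondrial held 0.684%, 0.571% and 0.541% of the counts at the salt and 0.614%, 2.38% and 0.510% at the reference station (exact two-sided permutation p = 0.7). The difference of -0.57 percentage points became 0.04 without reference 2. This share leaves out i2, whose identifier is not marked mitochondrial, and reference 2 held 3.49% with every transcript of the genes concerned. DN167722_c2_g1, also unmarked, had 22157 CPM in reference 2 and at most 135 CPM elsewhere. Added after these levels were seen, it brought the share in reference 2 to 5.54%. Whether this gene is mitochondrial was not tested, so 5.54% is not a measured mitochondrial share. These values describe 1 fish and separate no stations.

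Reference 2 also decided how many hits were called. Without it edgeR called 4 hits, and without it and salt 1 together 3 hits, against 0 with all 6 libraries. ENSDARP00000071724 had 0.286, 0.368 and 0.496 CPM in the salt libraries and 59.3, 5.65 and 63.9 CPM in the reference libraries, and its log2 fold change without reference 2 was -7.31 (SE 0.28, edgeR adjusted p = 0.00883). In this hit reference 2 was the lowest of the reference libraries but still above the salt libraries. XENTR_XP_004912416.2 had 13.3, 15.2 and 13.1 CPM against 194, 11 and 189 CPM, with -3.79 (SE 0.12, edgeR adjusted p = 0.00790) without it. ENSDARP00000025106 had 171, 180 and 185 CPM against 14, 126 and 19 CPM, with 3.44 (SE 0.19, edgeR adjusted p = 0.0336). ENSDARP00000075078 had 48.6, 54.2 and 54.2 CPM against 6, 37.8 and 4.89 CPM, with 3.27 (SE 0.19, edgeR adjusted p = 0.0351). In all 4 hits reference 1 and 3 lay close together, and in CPM reference 2 lay nearer to the salt libraries than to them. On the log2 scale this did not hold for ENSDARP00000071724. With salt 1 and reference 2 both left out, XENTR_NP_001072906.2 was called as well, at 9.21, 177 and 187 CPM in the salt and 8.21, 16 and 7.16 CPM in the reference libraries. The setting without both libraries was chosen after seeing their profile, and neither set of calls holds over the 3 fish of each station.

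Liver libraries were used to ask whether brain differences were particular to the brain. They are taken as the same 6 fish because their descriptions share the codes of the brain libraries. Over 12419 genes in both tables, the station difference in liver differed from that in brain in 15 genes (0.121%) by edgeR's interaction test at an adjusted p of 0.05, 13 lower and 2 higher in liver. With the fish code, which the descriptions of brain and liver libraries share, as a block, limma-voom called 1 gene, DN1377_c0_g1 (limma adjusted p = 0.0261). With 1 library left out edgeR called between 2 genes (without brain reference 1) and 156 (without liver reference 1). None of the 15 differed by more than 1 on the log2 scale in brain, where the values ran from -0.74 to 0.47. Only 10.96% of all brain genes tested did so. Of the 15, 10 had 0 counts in every salt liver, and their levels in the reference livers were low, from 1.02 to 6.44 CPM. The share of all shared genes at 0 in every salt liver is not given here. DN1377_c0_g1, with a hit to ENSDARP00000067907, had 11.2, 14.7 and 11.4 CPM in the salt brains and 24.7, 18.2 and 19.2 CPM in the reference brains, and 44.4, 39.7 and 41.0 CPM in the salt livers against 13.1, 15.3 and 11.5 CPM in the reference livers. Stations did not overlap in either tissue, and the difference of the liver and brain effects was 2.38 (SE 0.28, edgeR adjusted p = 0.0119). With total counts of the whole tables as library sizes it was 1.49 (edgeR adjusted p = 0.0753). The scale of the liver values matters here, because the shared genes held 27.96% to 40.8% of the counts in salt livers and 46.3% to 84.5% in reference livers, against 71.9% to 74.2% in brain. The median liver difference of all shared genes was -0.07 with TMM factors and -0.97 with total counts of the whole tables.

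Of the 20 named brain genes, 11 were in the liver table, and with TMM factors the interaction test called a difference between the tissues in none of them. DN97_c1_g1, higher in salt brains, had 3.13, 3.25 and 3.42 CPM on total counts in the salt livers and 9.48, 13.3 and 6.80 CPM in the reference livers. On these total counts its stations did not overlap in liver, and the direction was opposite to that in brain. Its fitted liver log2 fold change was -0.77 with TMM factors and -1.59 with total counts, and the lack of overlap is stated for total counts only. The difference of the liver and brain effects was -2.09 (SE 0.46, edgeR adjusted p = 0.328) with TMM factors, and with total counts of the whole tables it passed the threshold at -2.92 (SE 0.42, edgeR adjusted p = 0.0281). DN585_c0_g1 had 4.76, 2.98 and 6.09 CPM on total counts in the salt livers and 9.15, 36.1 and 30.8 CPM in the reference livers. Its fitted liver log2 fold change was -1.50 with TMM factors and -2.46 with total counts, beside -1.26 in brain. DN11342_c2_g1, with the same hit, had -1.81 and -2.74 in liver beside -1.18 in brain. DN6401_c9_g1 had 0.0251, 0 and 0.0685 CPM on total counts in the salt livers and 5.99, 1.76 and 3.64 CPM in the reference livers, again without overlap on that scale. DN327_c0_g2 had a liver log2 fold change of -0.04 with TMM factors and -0.92 with total counts. The difference from its brain effect was 1.14 (SE 0.29, edgeR adjusted p = 0.411) with the former. DN1899_c0_g1, higher in salt brains, had a liver log2 fold change of -2.99 with TMM factors, a difference of -4.59 (SE 1.76, edgeR adjusted p = 0.540) with 9.54 CPM on total counts in reference liver 2 and at most 2.58 CPM in any other liver.

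**Figure D5:**
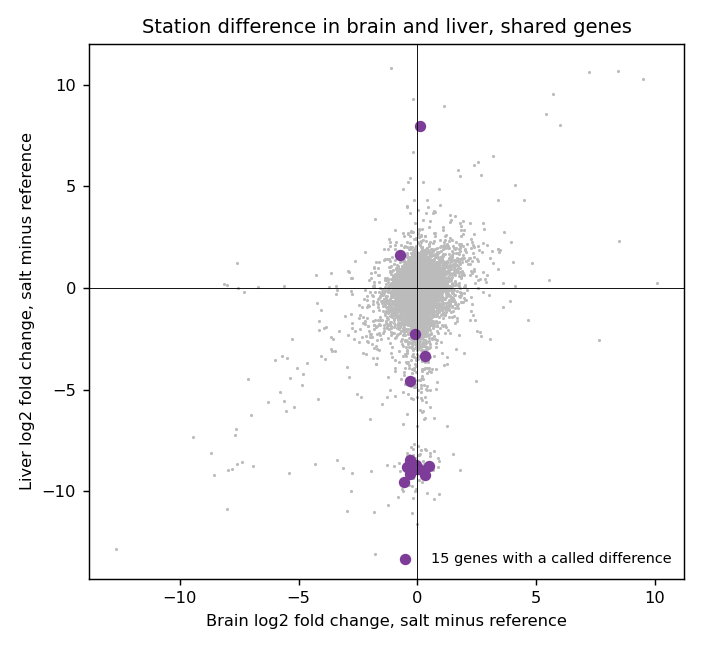
Log2 fold change of salt minus reference in brain (x) and liver (y) for the 12419 genes in both tables, from 1 edgeR fit with TMM factors, with the 15 genes called by the interaction test in purple. These 15 lie near 0 in brain (-0.74 to 0.47) and between -9.55 and 7.96 in liver.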

How the data were processed

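RNA was extracted with a column kit and made into TruSeq libraries, per the labels' protocols. The authors deposited raw counts per assembled transcript, as whole numbers, in 1 table per tissue. The submitters' processing notes name Trimmomatic and DESeq2, whereas the aligner, the counter and the assembly settings were not given in the sources used here. Transcripts in the deposited brain table all had 1.04 CPM or more in at least 2 libraries, as checked on the counts. Depth per brain library ran from 23678725 to 28731252 counts. Bounds for a value of 0 (3 counts per library) cover counting error only.

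Counts were summed per Trinity gene (the identifier before the isoform number) and per first listed protein hit, and fitted with edgeR 4.0.16 in R 4.3.3: filterByExpr, TMM, the quasi-likelihood fit, a two-sided F test and Benjamini-Hochberg adjustment over all features tested, with a threshold of 0.05. DESeq2 1.42.0 and limma 3.58.1 (voom) were run on the same features. CPM values use TMM-scaled library sizes unless total counts are named. The standard error is the size of the log2 fold change divided by the square root of F. The fits were tested on simulated data, where recovery of set changes was required only at a spread far smaller than that of the brain libraries. That check does not show how many real differences the fits could find here. Shares of counts were compared by exact permutation tests. The liver comparison fitted 12 libraries and the genes of both tables, which were counted separately; gill libraries were not used.

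Named are the 10 genes and 10 hits per direction with the smallest unadjusted p among those averaging 50 counts or more whose stations do not overlap, the 10 most abundant genes, the mitochondrial identifiers, and the genes at 0 throughout 1 station. The genes of named hits, the hits called without a library, and the examples for components, classes and single libraries were chosen after their values were seen. Members and lists were chosen with earlier results of these data known. The lists of gene symbols and cell type markers could not be used, since the identifiers carry no symbols. Titles number the replicates alike at both stations, but the numbers are not said to pair the fish. The main fit therefore used no block. Same-numbered libraries deviated together with r of -0.0764, -0.0925 and 0.0353. Deviations from a mean of 3 libraries are tied to each other, so these r cannot decide whether the numbers pair fish. The titles call the libraries biological replicates without naming fish, and each replicate is taken here as a separate fish. Brain and liver libraries are taken as the same fish where their descriptions share a code. Alternatives were other tests, scalings, filters and units, the replicate number as a block, and leaving out libraries.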

Additional observations from a re-analysis of the deposited data

Results flagged for a closer look

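In 15 genes the station difference in liver differed from that in brain by edgeR's interaction test over 12 libraries, and these differences, liver minus brain on the log2 scale, are given here. Brain and liver libraries share fish codes, and with the fish code as a block limma-voom called 1 of the 15, DN1377_c0_g1 (limma adjusted p = 0.0261). In 10 of the genes every salt liver had 0 counts while the reference livers had low levels, from 1.02 to 6.44 CPM. Their fitted differences depend on the prior count and are no bounds: -8.51 for DN4505_c0_g1, -8.62 for DN4721_c2_g1, -8.90 for DN937_c1_g1, -8.86 for DN743_c0_g1, -9.22 for DN4082_c3_g2, -9.52 for DN4282_c0_g1, -8.96 for DN8488_c1_g1, -8.39 for DN3014_c2_g1, -8.99 for DN39631_c1_g1 and -8.15 for DN9514_c0_g1. Against 3 counts per salt library, on total counts, the salt livers were at least 10.2-fold to 22.8-fold lower in these 10 genes. These bounds hold for total counts only. On that scale the median liver difference of all shared genes was -0.97, against -0.07 with TMM factors, and the CPM values above use TMM factors. In brain the same genes were present in all 6 libraries. DN937_c1_g1 had the smallest brain difference, at 131, 108 and 95.7 CPM in the salt and 117, 114 and 105 CPM in the reference brains. Every salt brain was below every reference brain in DN743_c0_g1, DN9514_c0_g1 and DN39631_c1_g1, by -0.32, -0.33 and -0.55 on the log2 scale. The stations overlapped in brain in the others of the 10. Of all brain genes tested, 13.5% did not overlap.

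The other 5 genes had counts in both tissues at both stations. The difference was -4.26 for DN50670_c0_g1, -2.18 for DN703_c0_g2, -3.66 for DN20893_c0_g1, 7.87 for DN563_c0_g1 and 2.38 for DN1377_c0_g1. DN20893_c0_g1, with a hit to ENSDARP00000033497, had 854, 869 and 838 CPM in the salt and 754, 764 and 559 CPM in the reference brains, without overlap. It had at most 0.621 CPM in any salt liver and at least 2.57 CPM in every reference liver. DN703_c0_g2, with a hit to ENSDARP00000099367, had 133 ± 18.9 CPM (SD, n = 3) in the salt and 142 ± 12.7 CPM in the reference brains, and was lower in all 3 salt livers. DN563_c0_g1, without a hit, had 29.9, 47.2 and 35.0 CPM in the salt livers and 0, 0.407 and 0 CPM in the reference livers.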

How the results depend on the processing

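edgeR called 0 genes under every scaling, filter, replicate block and left-out library tried, and DESeq2 called 352 genes and 213 hits. Hits called by edgeR ranged from 0 to 4 when 1 library was left out (4 without reference 2), and were 3 without salt 1 and reference 2 together, a setting chosen after seeing the data. Genes at an unadjusted p under 0.05 numbered 1726, between 1129 (without reference 3) and 2701 (without reference 2) with 1 library left out, 2674 without salt 1 and reference 2 together, and 1404 with the replicate block, which called 0 genes and 0 hits (779 hits at that p). Of 620 values of the 40 named genes and hits under alternatives, 619 kept their direction and the exception was ENSDARP00000116571, at -0.17 over every transcript that lists it. The 40 had been chosen for a small p and no overlap in the same libraries, so their steady direction is no support. Over every transcript that lists them, HOMSA_XP_005255597.1 fell from 10.7 to 1.51 and ENSDARP00000111796 moved from -10.3 to -1.29. None of the 620 values passed the threshold by edgeR or limma. All 40 features passed by DESeq2, which called 1.31% of all genes and 1.5% of all hits tested. The rule that picked the 40 made this outcome likely, so it adds no support. The genes whose liver and brain effects differed numbered 15, 11 with total counts of the shared genes, 16 with TMM factors of each whole table, 38 with total counts of the whole tables, and 1 by limma-voom with the fish code as a block. Without 1 library they numbered from 2 to 156, with 2 without brain reference 1, 156 without liver reference 1, 31 without liver salt 1 or liver salt 2, 24 without liver salt 3, 23 without liver reference 2, 5 to 8 without any other brain library. The whole-table settings were also chosen after seeing the data. Of 255 values of the 15 differences, 0 changed direction and 89 lost the call. The 15 were chosen by their p in the same libraries, so their steady direction is no support either. The mitochondrial share differed by -0.94 points with every transcript of the genes concerned. It differed by -1.62 with DN167722_c2_g1 added, whose identifier is not marked mitochondrial, and both settings were chosen after seeing the data. The cause was not tested. With 3 fish per station, exact tests of single values cannot go below 0.1.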
